A study of Mus musculus with 8 samples.

Results

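The 9 genes described here encode enzymes of the intestinal brush border: the disaccharidases Lct, Sis, Mgam and Treh, the peptidases Anpep, Dpp4, Enpep and Mme, and the phosphatase Alpi. They were taken by gene symbol from the deposited colon and ileum tables, which list 40178 genes between them, and all 9 were found in both. RNAseq had been performed on intestinal epithelial cells (IECs), the fraction that EDTA releases from the gut wall, of 4 mice, each of which gave 1 colon and 1 ileum library. Of these mice, 2 were WT (DDX5(+/+), Vil1Cre(+)) and 2 were DDX5KO (DDX5(fl/fl), Vil1Cre(+)), so the controls carried the Cre as well. The labels describe healthy littermates aged 8 weeks. The Cre is driven by villin 1, which is active in gut epithelium, so other cells in the fraction keep an intact Ddx5. Mouse 1 and mouse 2 of a genotype are the replicate numbers of the labels, and the colon and ileum libraries with one number came from one mouse.

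The brush border is the carpet of microvilli on the apical face of absorptive enterocytes. Its enzymes are anchored in the membrane and complete digestion there: disaccharidases cut sugars and starch fragments to monosaccharides, peptidases trim peptides to amino acids and short peptides, and alkaline phosphatase removes phosphate from lipids, nucleotides and bacterial endotoxin. These genes are textbook markers of mature small intestinal enterocytes, and transcription factors of the Cdx, HNF1, HNF4 and GATA families are known to act on several of them. The comparisons below ask how far each enzyme gene differs between ileum and colon, and whether loss of the RNA helicase DDX5 in the epithelium moves it in either tissue.

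By the GENCODE annotation on GRCm38, Lct (chr1:128284756-128328318) and Alpi (chr1:87098002-87101606) lie on chromosome 1, Dpp4 (chr2:62330073-62412231) on chromosome 2, and Sis (chr3:72888557-72967863), Mme (chr3:63241537-63386030) and Enpep (chr3:129269175-129332720) on chromosome 3. Mgam (chr6:40628831-40769123), Anpep (chr7:79821803-79861059) and Treh (chr9:44673233-44686305) are alone on theirs. Mgam, Treh and Mme are on the plus strand and the others on the minus strand. Counts cover the exons of each gene.

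For the gene with the largest tissue difference (Anpep) and the disaccharidases with the largest and the smallest (Sis and Mgam), the promoter window is printed from RefSeq on GRCm38.p6, 250 bases before to 50 bases after the annotated start, on the gene's strand. Capitals mark matches on either strand to the Cdx words TTTATT or TTTATG, the HNF1 half-site GTTAAT, the GATA word AGATAA and the HNF4 word CAAAGTC. No matches overlapped in these 9 genes.
Sis, chr3:72967814-72968113, minus strand: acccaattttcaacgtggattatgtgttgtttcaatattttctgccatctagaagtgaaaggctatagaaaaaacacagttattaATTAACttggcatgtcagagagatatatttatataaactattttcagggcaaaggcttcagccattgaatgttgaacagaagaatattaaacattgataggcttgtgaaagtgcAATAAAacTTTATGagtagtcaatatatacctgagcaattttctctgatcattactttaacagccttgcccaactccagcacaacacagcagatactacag
Mgam, chr6:40628581-40628880, plus strand: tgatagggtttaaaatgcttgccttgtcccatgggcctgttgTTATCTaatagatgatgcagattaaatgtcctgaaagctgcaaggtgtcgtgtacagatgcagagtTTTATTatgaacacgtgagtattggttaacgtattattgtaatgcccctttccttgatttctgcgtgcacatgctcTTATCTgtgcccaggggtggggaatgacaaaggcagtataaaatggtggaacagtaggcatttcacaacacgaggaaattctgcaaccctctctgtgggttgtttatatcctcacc
Anpep, chr7:79848161-79848460, minus strand: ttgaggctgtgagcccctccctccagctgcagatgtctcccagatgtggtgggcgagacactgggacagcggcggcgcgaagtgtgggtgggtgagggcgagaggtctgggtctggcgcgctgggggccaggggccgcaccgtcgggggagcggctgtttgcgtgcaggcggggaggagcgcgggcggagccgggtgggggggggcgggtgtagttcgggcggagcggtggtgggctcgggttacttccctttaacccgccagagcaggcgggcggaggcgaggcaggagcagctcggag
The Sis window held 2 Cdx words, the first of which starts 51 bases before the start site, and 1 HNF1 half-site. The Mgam window held 1 Cdx word and 2 GATA words. The Anpep window, with a GC content of 72.3%, held none of the 4 motifs. It lies inside the Anpep gene as GENCODE draws it, which starts further upstream.

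Among the other genes, the Lct window held 1 Cdx word and 2 GATA words, the Dpp4 window 1 GATA word, the Alpi window 1 HNF4 word and the Treh window 2 HNF4 words. Neither the Enpep window nor any of the 3 Mme windows held a match. Of all 32851 RefSeq promoter windows of this length, 27.6% held a Cdx word, 7.1% the HNF1 half-site, 11.2% the GATA word and 4.44% the HNF4 word. A match describes the letters and not binding.

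Total counts per library ranged from 11571061 to 22984283. Ddx5 itself was lower in every DDX5KO library, with 771 and 706 CPM (counts scaled to library size) in the colon of WT mice 1 and 2 against 367 and 355 CPM in DDX5KO mice 1 and 2, and 700 and 700 against 340 and 326 CPM in the ileum. Its log2 fold change by edgeR was -1.04 ± 0.09 (standard error (SE); adjusted p = 0.0866) in the colon and -1.07 ± 0.18 (SE, adjusted p = 0.0270, or 0.305 without the replicate block) in the ileum. Epithelial genes fit the label of the fraction: the summed level of 6 epithelial markers, Epcam and Krt8 among them, ran from 10148 to 15475 CPM. The summed level of 9 T cell markers ran from 8.66 to 115 CPM, that of 10 stromal and endothelial markers from 8.77 to 34.0 CPM, and those of 7 B and plasma cell and 6 myeloid markers stayed at or below 10.7 CPM, with Cd79a at 0 in some libraries of each tissue. One ileum library stood apart: in DDX5KO mouse 2, 3 repeat-like genes (Gm10800, Gm10801 and Gm21738) held 19.5% of the counts, against 0.226% in DDX5KO mouse 1 and 4.04% and 3.93% in the WT mice.

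All 9 enzyme genes were higher in the ileum than in the colon of WT mice, with no overlap between the tissues. In edgeR's quasi-likelihood test over all 8 libraries, 9 of 9 passed an adjusted p under 0.05 in this direction, against 17.4% of the 16178 genes tested. The median log2 difference of the 9 was 5.93, and that of all genes -0.018. Together the 9 genes took 1.15% and 1.10% of all counts in the ileum of WT mice 1 and 2, and 0.0662% and 0.0628% in their colon. In bulk libraries such as these, fewer cells of a type and less RNA per cell cannot be told apart.

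**Figure D1:**
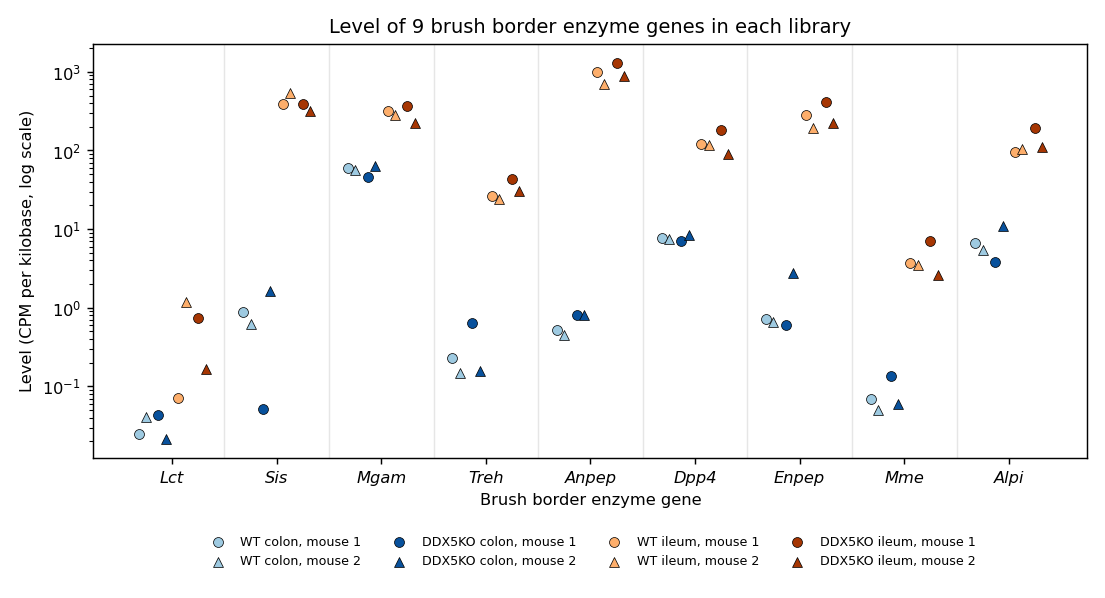
Level of each gene in each library, as CPM per kilobase of gene length on a log axis, where circles are mouse 1 and triangles mouse 2 of each genotype, blue is colon and orange to brown is ileum. Every gene lies higher in the ileum, Mgam has the highest level in each colon library, and Sis spreads from 0.0518 to 1.64 CPM per kilobase between the 2 DDX5KO colon libraries.

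Anpep, which encodes aminopeptidase N, a protease that removes neutral amino acids from the ends of peptides, differed most. It had 4084 and 2885 CPM in the ileum of WT mice 1 and 2 and 2.15 and 1.85 CPM in their colon. Every ileum library lay far above every colon library, with a log2 difference of 10.76 ± 0.38 (SE, edgeR adjusted p = 1.14e-06). Each colon library of a WT mouse held at most 0.0618% of the mean WT ileum level.

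Sis encodes sucrase-isomaltase, which cuts sucrose and the branch points of starch. Its level was 2922 and 4000 CPM in WT ileum and 6.67 and 4.67 CPM in WT colon, again with no overlap. The log2 difference was 9.26 ± 1.23 (SE, edgeR adjusted p = 6.88e-04). The DDX5KO libraries share this estimate of the spread, and in a fit of the 4 WT libraries alone the difference was 9.26 ± 0.29 (SE, edgeR adjusted p = 3.11e-07).

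Enpep, the acidic-residue aminopeptidase A that also cleaves angiotensin II, had 1317 and 912 CPM in WT ileum and 3.36 and 3.13 CPM in WT colon. Its log2 difference was 8.42 ± 0.75 (SE, edgeR adjusted p = 8.76e-05). Treh, the enzyme that splits the fungal and insect sugar trehalose, had 53.9 and 49.1 CPM against 0.473 and 0.308 CPM, the last values resting on 9 and 7 reads. Treh differed by 7.04 ± 0.44 (SE, edgeR adjusted p = 1.40e-05) on the log2 scale.

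Mme, the membrane endopeptidase neprilysin, had 42.3 and 40.7 CPM in WT ileum and 0.788 and 0.572 CPM in WT colon, from 15 and 13 reads. The log2 difference was 5.93 ± 0.57 (SE, edgeR adjusted p = 1.25e-04). Alpi, intestinal alkaline phosphatase, had 221 and 243 CPM against 15.5 and 12.8 CPM. It differed by 4.04 ± 0.47 (SE, edgeR adjusted p = 3.58e-04), so that a colon library of a WT mouse held 5.51 to 6.68% of the WT ileum mean. Its close relative Akp3 was near 0 in all libraries, at most 0.347 CPM, and shared 1.53% of the 50-base words of Alpi.

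Mgam kept the largest colonic level relative to the ileum in each of the 4 colon libraries, while Dpp4 was not separated from Alpi or Lct in this respect. Dpp4, a peptidase that removes dipeptides after proline and inactivates incretin hormones, had 771 and 731 CPM in WT ileum and 49.0 and 47.1 CPM in WT colon. Its log2 difference was 3.97 ± 0.32 (SE, edgeR adjusted p = 4.79e-05).

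Mgam encodes maltase-glucoamylase, which releases glucose from the ends of starch chains. Its level was 2747 and 2459 CPM in WT ileum and 527 and 493 CPM in WT colon, from 10030 and 11206 reads. The groups did not overlap, yet a WT colon library held 18.9 to 20.2% of the WT ileum mean. The log2 difference of 2.35 ± 0.27 (SE, edgeR adjusted p = 3.34e-04) was the smallest of the 9.

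Lct, lactase, the milk sugar enzyme whose level is known to fall after weaning, was near the detection limit and unlike the rest. The WT ileum libraries had 0.461 and 7.63 CPM, from 10 and 110 reads, and the WT colon libraries 0.158 and 0.264 CPM, from 3 and 6 reads. The WT ileum libraries thus differed 16.6 times between themselves. The log2 difference of 4.13 ± 1.34 (SE, edgeR adjusted p = 0.0432) rested on mouse 2: without the ileum library of WT mouse 2 it was 1.08 with an edgeR adjusted p of 0.560, and leaving out the colon library of WT mouse 1, WT mouse 2 or DDX5KO mouse 1 also raised the edgeR adjusted p, to 0.181, 0.158 and 0.0504.

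**Figure D2:**
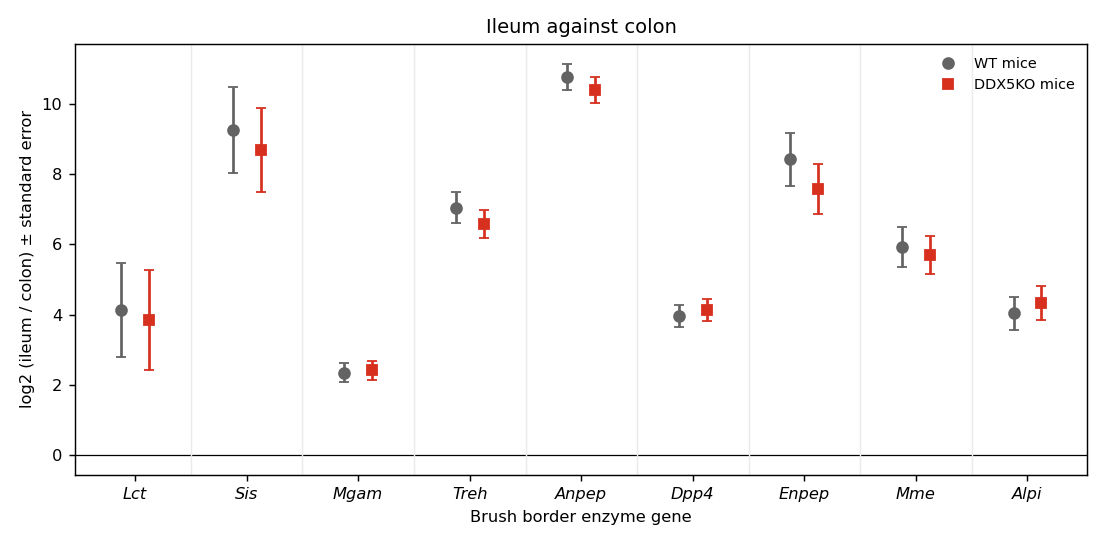
Log2 difference between ileum and colon for each gene, in WT (grey circles) and DDX5KO mice (red squares), with the SE from the edgeR fit as bars. The values run from 2.35 for Mgam to 10.76 for Anpep in WT mice, and the bars of the genotypes overlap for every gene.

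In DDX5KO mice the order of the tissue differences was the same at its ends, with Anpep at 10.40 ± 0.37 and Mgam at 2.42 ± 0.27 (SE, log2). In edgeR 8 of the 9 genes passed an adjusted p under 0.05, against 18.0% of all genes tested in this direction. The exception was Lct, at 3.84 ± 1.43 (SE, adjusted p = 0.0686), which passed with the mouse as a replicate block (adjusted p = 0.00519) and in DESeq2 (adjusted p = 0.00547). The WT and the DDX5KO difference were fitted on different libraries of one model and can be compared by its interaction term, given further on.

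The levels can be ordered between genes once divided by gene length. In WT ileum the order was Anpep at 843 ± 205, Sis at 464 ± 102, Mgam at 299 ± 23.4, Enpep at 237 ± 60.8, Dpp4 at 119 ± 4.44, Alpi at 99.2 ± 6.54, Treh at 25.1 ± 1.64, Mme at 3.59 ± 0.102 and Lct at 0.632 ± 0.791 CPM per kilobase (mean ± SD, n = 2). The ranges of neighbours in this order did not overlap, though each range rests on 2 mice. In DDX5KO ileum Anpep was again first, at 1095 ± 295 CPM per kilobase (SD, n = 2), but the ranges of Sis, Enpep and Mgam overlapped with each other, as did those of Alpi and Dpp4.

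In WT colon the order was different: Mgam led with 58.6 ± 2.73 CPM per kilobase, followed by Dpp4 at 7.60 ± 0.212 and Alpi at 6.05 ± 0.826 (mean ± SD, n = 2). Sis, at 0.894 and 0.625 in WT mice 1 and 2, and Enpep, at 0.714 and 0.664 CPM per kilobase, came next with overlapping ranges, then Anpep at 0.484 ± 0.0521. The means of Treh, Mme and Lct were 0.191, 0.0589 and 0.0329 CPM per kilobase. Anpep, first in the ileum, was thus sixth in the colon.

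Within each library the share of a gene in the summed counts of the 9 does not depend on how libraries are scaled. Mgam took 87.1% of the enzyme counts in the colon of WT mouse 1 (95% Wilson interval 86.47 to 87.7%), 87.5% in WT mouse 2, 86.4% in DDX5KO mouse 1 and 83.5% in DDX5KO mouse 2. In the ileum it took 22.6%, 21.7%, 20.8% and 19.4% in the same mice. All 4 ileum shares were below all 4 colon shares, in both genotypes. Within each tissue both DDX5KO shares were below both WT shares, a difference that rests on 2 mice a group and was not tested. The level of Mgam itself overlapped between the genotypes in both tissues. Other shares were also apart: in the ileum Sis was lower and Treh, Anpep and Alpi were higher in both DDX5KO mice. In the colon the shares of Anpep and Enpep were higher in both. Shares of one sum cannot move independently. The intervals cover counting error only, since the reads carry no molecular identifiers.

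**Figure D3:**
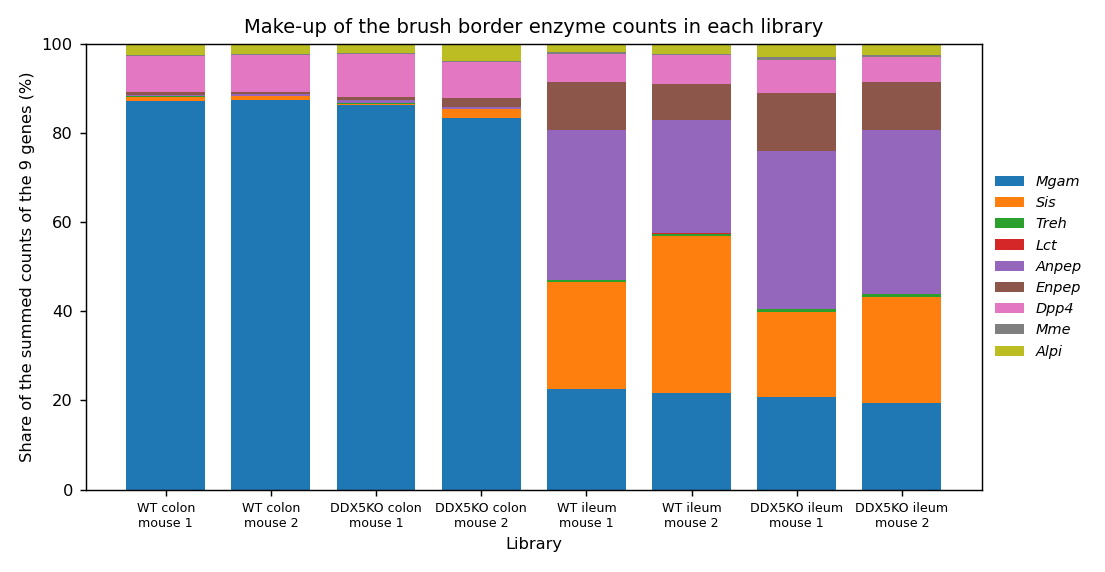
Share of each gene, in percent, in the summed raw counts of the 9 genes, 1 bar per library. Mgam fills 83.5 to 87.5% of each colon bar, while Anpep, Sis, Mgam and Enpep fill most of each ileum bar.

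In the ileum Anpep took 33.6%, 25.5%, 35.5% and 36.9% of the enzyme counts in WT mice 1 and 2 and DDX5KO mice 1 and 2. Sis took 24.0%, 35.3%, 19.1% and 23.9%. WT mouse 2 had the highest Sis share and the lowest Anpep share, and its ratio of peptidase to disaccharidase counts was 0.701, against 1.09 in WT mouse 1 and 1.39 and 1.22 in the DDX5KO mice. The ratio was higher in both DDX5KO ileum libraries than in both WT libraries, but WT mouse 1 lay closer to the DDX5KO mice than to WT mouse 2, and with 2 mice a group an exact test of a single ratio cannot pass 0.05. In the colon the same ratio was 0.103 and 0.106 in WT and 0.130 and 0.125 in DDX5KO mice.

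The next question was whether the enzyme genes depended on DDX5 within a tissue. In the colon, Lct and Treh had too few counts to be tested, and of the 7 genes tested 1, Anpep, was higher in DDX5KO by the study's criterion, which asks for an unadjusted p under 0.05 and a change of 0.5 or more on the log2 scale. Unless another fit is named, the criterion was applied here to the edgeR fit, while the study applied it to DESeq2. The same criterion called 2.64% of 12557 protein-coding genes higher and 4.01% lower, and no enzyme gene lower. At an adjusted p under 0.05, edgeR called 0 of the 7 genes and 0 of 15362 genes in all. With no adjustment 1 of the 7 passed 0.05 in edgeR, and DESeq2 with the replicate block called 0 with or without adjustment. The median log2 fold change of the 7 genes was 0.14, against -0.0004 for all genes tested.

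Anpep had 2.15 and 1.85 CPM in the colon of WT mice 1 and 2 and 3.31 and 3.37 CPM in DDX5KO mice 1 and 2, from 41, 42, 60 and 74 reads. Both DDX5KO libraries lay above both WT libraries, as they did for 23.8% of all genes tested, while both lay below for 20.7% of all genes and for 0 of the 7, and the replicates of each genotype were close. The log2 fold change was 0.73 ± 0.25 (SE, edgeR unadjusted p = 0.0322, adjusted p = 0.375). It was 0.73 in DESeq2 with the replicate block as well, but with an unadjusted p of 0.230, and it missed the criterion in edgeR when either WT library was left out.

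Among the 7 genes tested in the colon, Sis, Enpep and Alpi had the widest spread between the DDX5KO mice. Enpep differed 4.59 times and Alpi 2.92 times, followed by Mme at 2.27 times. Treh, which was not tested, differed 4.14 times. In this group 1031 of 16178 genes had a 2-fold difference between the mice. Sis had 6.67 and 4.67 CPM in WT colon, 0.386 CPM in DDX5KO mouse 1 and 12.2 CPM in DDX5KO mouse 2, which is 31.6 times as much. One DDX5KO library was the lowest and the other the highest of the 4, so the groups overlapped entirely. The log2 fold change was -0.59 ± 1.23 (SE, edgeR adjusted p = 0.871) and turned positive, to 0.17, without the replicate block.

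Enpep had 3.36, 3.13, 2.81 and 12.9 CPM in the same order of mice. Only DDX5KO mouse 2 departed from the others, and the log2 fold change was 0.98 ± 0.57 (SE, edgeR adjusted p = 0.546). Alpi had 15.5, 12.8, 8.89 and 26.0 CPM, lowest in DDX5KO mouse 1 and highest in DDX5KO mouse 2. Its log2 fold change was 0.14 ± 0.44 (SE, edgeR adjusted p = 0.917).

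These 3 genes changed direction or call with a single library. Without DDX5KO mouse 2, edgeR gave log2 fold changes of -3.86 for Sis, -0.22 for Enpep and -0.68 for Alpi. Without DDX5KO mouse 1 it gave 1.11, 1.98 and 0.87. By the study's criterion 4 of 8 genes tested were called, in either direction, without DDX5KO mouse 1 (7.62% of all protein-coding genes) and 5 of 8 without DDX5KO mouse 2 (15.4% of all), fits in which the lone DDX5KO library is assumed to vary as the WT pair does.

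Genes that are high in ileum did not all move with Sis in these libraries. In the colon of DDX5KO mouse 2, Anpep stood at 3.37 CPM against 3.31 CPM in DDX5KO mouse 1, and the Paneth cell defensins Defa17, Defa22, Defa24 and Defa30 were at 0 to 0.273 CPM against 321 to 6218 CPM in the ileum libraries. The rest of the Paneth cell list was mixed in the colon of DDX5KO mice 1 and 2. Ang4 (200 and 387 CPM), Itln1 (14.6 and 36.9) and Mmp7 (0.773 and 1.73) were higher in mouse 2, and Lyz1 (2.10 and 0.456) was lower. Ggt1, another brush border peptidase, was at 12.6 CPM in the colon of DDX5KO mouse 2 and 2.59 to 3.57 CPM in the other colon libraries. Isx, an intestinal homeobox factor, was at 8.77 CPM in the colon of DDX5KO mouse 1 and 35.8 to 47.0 CPM in the others. Ggt1 and Isx were picked after their values were seen. The cause of these differences was not tested.

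Mgam and Dpp4, the abundant enzyme genes of the colon, differed little between genotypes. Mgam had 527, 493, 398 and 553 CPM in WT mice 1 and 2 and DDX5KO mice 1 and 2, and the WT libraries lay between the DDX5KO libraries. Its log2 fold change was -0.13 ± 0.15 (SE, edgeR adjusted p = 0.766). Dpp4 had 49.0, 47.1, 44.3 and 53.8 CPM, again with WT inside the DDX5KO range, and a log2 fold change of 0.016 ± 0.12 (SE, edgeR adjusted p = 0.969).

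The scarce genes allowed no firm statement. Mme had 0.788, 0.572, 1.55 and 0.684 CPM, from 13 to 28 reads, with a log2 fold change of 0.64 ± 0.40 (SE, edgeR adjusted p = 0.571). Treh had 9, 7, 24 and 7 reads and Lct 3, 6, 5 and 3 reads in the colon libraries. DDX5KO mouse 1 was the highest for Mme and Treh, and a difference in Lct was not detectable at this depth.

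**Figure D4:**
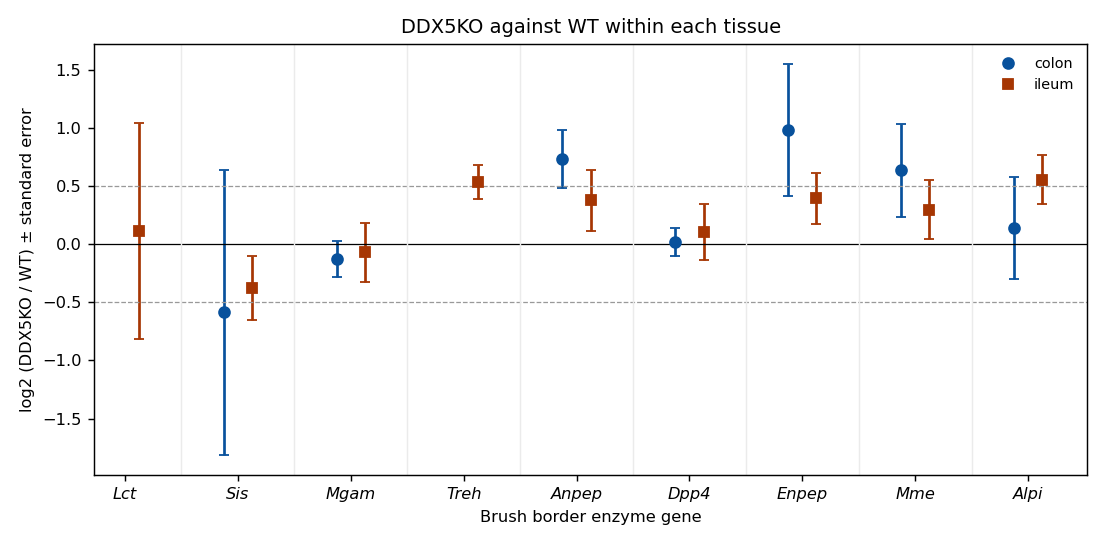
Log2 fold change of DDX5KO against WT for each gene in colon (blue circles) and ileum (brown squares), with the SE from the edgeR fit as bars. Lct and Treh were not tested in the colon. Dashed lines mark 0.5 in either direction, the fold change of the study's criterion. Sis in colon and Lct in ileum have the widest bars, and Anpep in colon and Treh and Alpi in ileum lie past the line with an unadjusted p under 0.05.

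In the ileum all 9 genes were tested, and 2 of them, Treh and Alpi, were higher in DDX5KO by the study's criterion, which called 3.78% of 12064 protein-coding genes higher and 2.83% lower. No enzyme gene was called lower. At an adjusted p under 0.05 edgeR called 0 of the 9, against 0.697% of all genes, while 2 passed an unadjusted p under 0.05, and DESeq2 with the replicate block also called 0 at an adjusted p under 0.05 and 3 (Treh, Anpep and Enpep) at an unadjusted p under 0.05. The median log2 fold change of the 9 was 0.30, against -0.0046 for all genes. Of the 9, 7 were positive, as were 49.1% of all genes tested. Lct, at 0.11, was among the 7 and turned to -0.37 without the replicate block.

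Treh had 53.9 and 49.1 CPM in the ileum of WT mice 1 and 2 and 88.4 and 62.4 CPM in DDX5KO mice 1 and 2. Both DDX5KO libraries were above both WT libraries, as for 18.7% of all genes tested. The log2 fold change was 0.54 ± 0.14 (SE, edgeR unadjusted p = 0.00351, adjusted p = 0.150). Alpi had 221 and 243 CPM in WT and 449 and 257 CPM in DDX5KO mice, with no overlap but with DDX5KO mouse 2 close to the WT mice. Its log2 fold change was 0.56 ± 0.21 (SE, edgeR unadjusted p = 0.0241, adjusted p = 0.321). Without DDX5KO mouse 1 the log2 fold change was 0.15 for Alpi and 0.28 for Treh, and without DDX5KO mouse 2 it was 0.96 and 0.79.

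Without the replicate block Treh alone met the criterion (log2 fold change 0.55, edgeR adjusted p = 0.560), and Alpi did not (0.61, adjusted p = 0.602). In DESeq2 with the block, the unadjusted p of Treh was 0.0256 and that of Alpi 0.311.

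Sis was the one enzyme gene with both DDX5KO ileum libraries below both WT libraries, an arrangement found for 20.8% of all genes tested. It had 2922 and 4000 CPM in WT and 2903 and 2377 CPM in DDX5KO mice, so that WT mouse 1 and DDX5KO mouse 1 were nearly equal. The log2 fold change was -0.38 ± 0.27 (SE, edgeR adjusted p = 0.639).

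The other peptidases and Mgam overlapped between the genotypes, with DDX5KO mouse 1 high and DDX5KO mouse 2 low or near WT. Anpep had 4084, 2885, 5391 and 3668 CPM and a log2 fold change of 0.38 ± 0.26 (SE, edgeR adjusted p = 0.617). Enpep had 1317, 912, 1956 and 1057 CPM and a log2 fold change of 0.39 ± 0.22 (SE, edgeR adjusted p = 0.513). Dpp4 had 771, 731, 1150 and 568 CPM and a log2 fold change of 0.11 ± 0.24 (SE, edgeR adjusted p = 0.911).

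Mme followed the same order, with 42.3, 40.7, 82.2 and 30.2 CPM and a log2 fold change of 0.30 ± 0.25 (SE, edgeR adjusted p = 0.707). Mgam had 2747, 2459, 3156 and 1933 CPM and a log2 fold change of -0.07 ± 0.26 (SE, edgeR adjusted p = 0.951). For each of these genes the ileum of DDX5KO mouse 1 was the highest of the 4 libraries. Lct had 0.461, 7.63, 4.78 and 1.07 CPM, with a log2 fold change of 0.11 ± 0.93 (SE, edgeR adjusted p = 0.982), and its WT libraries were the lowest and the highest.

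Other enterocyte genes were also highest in the ileum of DDX5KO mouse 1. The summed level of 7 villus top enterocyte markers was 1763 and 1957 CPM in WT mice 1 and 2 and 3016 and 1567 CPM in DDX5KO mice 1 and 2, and that of 19 microvillus genes was 18619, 17186, 23288 and 16486 CPM. The part of these shifts in the enzyme values was not tested. When the library of DDX5KO mouse 2 was left out, 6 of the 9 genes met the criterion in edgeR, as did 10.5% of all protein-coding genes in either direction, and when that of DDX5KO mouse 1 was left out none did, against 6.70% of all. Leaving out the 3 repeat-like genes, which are abundant in DDX5KO mouse 2, kept the same 2 genes called.

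No enzyme gene had a genotype effect that differed between ileum and colon in edgeR's interaction test over the 8 libraries, where 0 of 9 passed an adjusted p under 0.05, against 0.0124% of all genes. With no adjustment 0 of 9 passed 0.05 as well, the lowest unadjusted p being 0.325 (adjusted p = 1.00), and DESeq2 called 0. The interaction was -0.85 ± 0.81 for Enpep, -0.57 ± 1.26 for Sis and -0.36 ± 0.38 for Anpep (SE, log2). The errors were wide enough to hold differences of more than a doubling for Enpep and Sis. They were wide as well for Lct (SE 2.30), Mme (0.85), Treh (0.71) and Alpi (0.60), so the test says little about these genes.

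The gene next to Mgam gave a contrast to it. Mgam2-ps, an annotated pseudogene at chr6:40778711-40855600 (GRCm38), lies on the same strand and starts past the end of Mgam at position 40769123. It was picked after its values were seen. Only 0.295% of the 50-base words of Mgam also occur in it. Its reads equalled 36.2% and 42.3% of those of Mgam in the colon of WT mice 1 and 2 and 38.1% and 33.6% in DDX5KO mice 1 and 2. In the ileum the figures were 6.42%, 6.47%, 2.94% and 4.70%.

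Per kilobase, Mgam2-ps stood at 40.9 and 44.8 CPM in WT colon and 37.9 and 34.2 CPM in WT ileum. Mgam stood at 60.5 and 56.7 CPM per kilobase in WT colon and 316 and 283 in WT ileum. The log2 difference of Mgam2-ps between WT ileum and colon was -0.25 ± 0.13 (SE, edgeR adjusted p = 0.168). In DDX5KO mice Mgam2-ps stood at 32.6 and 39.9 CPM per kilobase in colon and 19.9 and 19.5 in ileum, below both WT libraries in each tissue. The same arrangement was found for 20.7% of all genes tested in colon and 20.8% in ileum.

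The ileum log2 fold change of Mgam2-ps was -0.86 ± 0.14 (SE, edgeR adjusted p = 0.0263), beside -0.07 ± 0.26 for Mgam. The log2 fold change ranged from -0.79 to -0.94 over the alternatives. The call was lost without the replicate block (edgeR adjusted p = 0.305), without the 3 repeat-like genes (0.0562), with any 1 library left out (0.0941 to 0.981) and in the joint fit of both tissues (0.101). It held in DESeq2 with the block and without it (adjusted p = 0.00265), with RLE scaling (0.0289) and with no filter on low counts (1.02e-04). In the colon the log2 fold change was -0.26 ± 0.09 (SE, edgeR adjusted p = 0.364), and the interaction of -0.63 ± 0.18 (SE) had an edgeR adjusted p of 0.981.

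**Figure D5:**
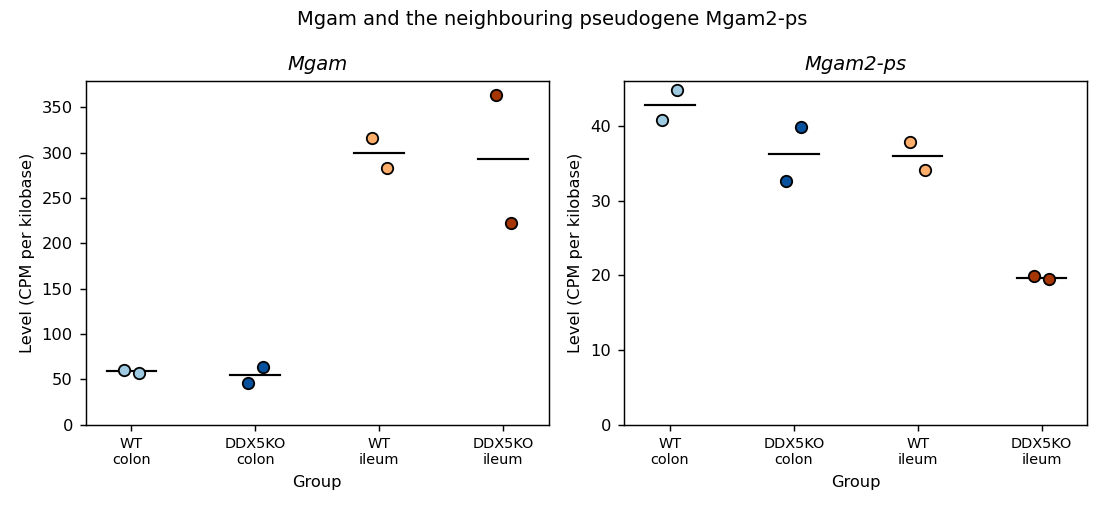
Level of Mgam and of the neighbouring pseudogene Mgam2-ps in each library, in CPM per kilobase on linear axes that start at 0, where points are mice and lines are means of 2. Mgam is higher in every ileum library than in every colon library, while the 2 DDX5KO ileum libraries of Mgam2-ps, at 19.9 and 19.5, lie below the other 6 libraries.

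Among the 9 genes, the closest patterns over the 8 libraries were those of Dpp4 and Alpi, whose centred log2 levels differed by a root mean square of 0.38, and of Treh and Mme, at 0.61. Of 13100 other protein-coding genes, those nearest to Mgam were Mfsd4b3 (0.12) and Pnp2 (0.12), and those nearest to Dpp4 were Tm6sf2 (0.17) and Aspa (0.20). Amn (0.17) and Slc3a1 (0.24) were nearest to Alpi, Abcc2 (0.31) and 2010106E10Rik (0.46) to Treh, and 2010106E10Rik (0.21) and Nat8f5 (0.43) to Mme.

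Anpep lay nearest to the defensins Defa2 (0.35) and Defa5 (0.40), and Enpep to Susd2 (0.47) and Myrfl (0.56). Sis had no close match, its nearest genes being Lgals2 (1.24) and Defa26 (1.25), and Lct came nearest to Cyyr1 (0.68) and Defa23 (0.79). These distances describe 8 libraries in which the tissue difference dominates.

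Other hydrolases of the brush border went the way of the 9. Of 13 tested, 12 were higher in WT ileum and 1 lower by edgeR at an adjusted p under 0.05, against 17.4% and 16.8% of all genes. The median log2 difference of the 13 was 4.39. The dipeptidase Naaladl1 was higher by 6.41 on the log2 scale. The sphingomyelinase Enpp7 had 53.6 and 24.9 CPM in WT ileum and no read in any colon library. The exception was the ecto-nucleotidase Nt5e, at -2.54 (edgeR adjusted p = 0.00119). By the study's criterion, Naaladl1 (1.30) was among those higher and Xpnpep2 (-0.75) was lower in DDX5KO colon, of 11 tested, and Nt5e (1.33) and Ggt1 (0.62) were higher and Mep1b (-0.84) lower in DDX5KO ileum, of 13. The Mep1b call was lost without the replicate block. Over all protein-coding genes the criterion called 2.64% higher and 4.01% lower in colon, and 3.78% higher and 2.83% lower in ileum.

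The carriers that take up what the enzymes release were likewise ileal. On their list, which also holds the lectin gene Clec2h, 14 of 14 genes tested were higher in WT ileum in edgeR. The same was so for 17.4% of all genes. The median log2 difference of the 14 was 3.65. The amino acid carrier Slc6a19 differed by 9.51, and the cystine carrier subunit Slc7a9 by 6.29. In DDX5KO colon Slc6a19 (1.77) and the peptide carrier Slc15a1 (0.94) were higher and the glutamate carrier Slc1a1 (-0.75) was lower by the study's criterion, of 12 tested, and 0 of 14 were called in DDX5KO ileum, as also without the replicate block. The criterion called 2.64% of all protein-coding genes higher and 4.01% lower in colon, and 3.78% higher and 2.83% lower in ileum. Slc6a19 had 0.893 and 0.924 CPM in WT colon and 2.76 and 3.51 CPM in DDX5KO colon, and none of these calls passed an adjusted p under 0.05.

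The microvillus itself differed less. Of 18 structural genes, 14 were higher in WT ileum, with a median log2 difference of 1.31, led by Tmigd1 (3.66) and the actin bundler Pls1 (2.23), and none was called between genotypes in either tissue by the study's criterion. Among 18 transcription factors of enterocytes, 9 were higher and 3 lower in WT ileum, with a median of 0.64. Of all genes tested, 17.4% were higher and 16.8% lower. Gata5 (7.07), Maf (6.25), Creb3l3 (5.27) and Gata4 (4.81) were highest on the ileal side, while Cdx2 did not pass (-0.08, edgeR adjusted p = 0.816). In DDX5KO colon Creb3l3 (0.81) was higher and Cdx2 (-0.54) lower by the study's criterion, of 17 tested. Their edgeR adjusted p-values were 0.397 and 0.328. Of all protein-coding genes, 2.64% were called higher there and 4.01% lower, and in DDX5KO ileum 3.78% higher and 2.83% lower.

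Markers of other cells were also called between genotypes in the colon by the study's criterion. That criterion called 2.64% of all protein-coding genes higher there and 4.01% lower. At an adjusted p under 0.05, edgeR called 0 of 15362 genes in the colon, so none of these markers passed. Of 8 T cell markers tested, 5 were lower in DDX5KO colon. The summed levels of the T cell list were 53.6 and 39.5 CPM in WT and 8.66 and 21.3 CPM in DDX5KO mice. Of 7 surface colonocyte markers, 4 were higher, Aqp8 most (0.79), with summed levels of 4074 and 4338 CPM in WT and 4842 and 5361 CPM in DDX5KO mice. Of the Paneth cell list, with 4 genes tested, Ang4 (-2.35) and Itln1 (-1.65) were lower in DDX5KO colon. The goblet cell genes Clca1 (-1.57) and Fcgbp (-0.61) were lower as well, of 7 goblet genes tested. The enteroendocrine genes Cck (1.51), Gcg (0.59) and Pyy (0.52) were higher, of 7. Of the stromal list, with 6 tested, Pdgfrb (1.61) and Pecam1 (0.88) were higher and Dcn (-1.49) was lower. The plasma cell gene Igha (1.61) was higher, of 2 tested on its list. Igha had 1.10 and 0.924 CPM in WT mice 1 and 2 and 1.32 and 5.88 CPM in DDX5KO mice 1 and 2. No colon library had more than 1.09 CPM of Cck or 1.41 CPM of Dcn. The part of these markers in the Anpep value was not tested.

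In the ileum, where Treh and Alpi were called, the stromal gene Pdgfrb (1.88, edgeR adjusted p = 0.00328) and the enteroendocrine gene Chga (0.92, edgeR adjusted p = 0.0303) were higher in DDX5KO. An adjusted p under 0.05 was passed by 0.697% of all genes tested there. Without the replicate block, Pdgfrb and Chga did not both pass it in edgeR. By the study's criterion alone Chgb (0.69), Pyy (0.62), the goblet cell genes Zg16 (0.77) and Tff3 (0.51) and the myeloid gene Lyz2 (2.18) were higher as well. The colonocyte gene Car1 (-2.16) was lower. In all, 3 of 7 enteroendocrine, 2 of 7 goblet, 1 of 4 myeloid and 1 of 3 stromal markers tested were called higher. Of 5 colonocyte markers tested, 1 was called lower. The criterion called 3.78% of all protein-coding genes higher in the ileum and 2.83% lower. The median log2 fold change was 0.27 for the stromal and 0.14 for the myeloid markers tested. Without the replicate block the goblet count was 1, and the other counts were unchanged. Both Lyz2 and Car1 were scarce in the ileum. Lyz2 had 0.923 and 0.208 CPM in WT mice 1 and 2 and 2.81 and 2.36 CPM in DDX5KO mice 1 and 2. Car1 had 4.15 and 1.53 against 0.937 and 0.321 CPM. Summed goblet markers were 28258 and 24321 CPM in WT and 33879 and 29680 CPM in DDX5KO ileum, and summed enteroendocrine markers 71.2 and 67.2 against 109 and 95.3 CPM. None of 7 T cell or 8 Paneth cell markers tested was called there in edgeR, with or without the replicate block. The part of these genes in the Treh and Alpi values was not tested.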

How the data were processed

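RNAseq of IECs gave 8 libraries, 2 mice in each of 4 groups, taken from the sample labels. According to the methods and the submitters' processing notes, the authors aligned ribosome-depleted, stranded libraries to mm10 with STAR 2.6.1a and counted unique reads over exons with featureCounts. The deposited tables hold raw counts and the authors' normalized signal, which is counts divided by DESeq2 (1.18.1) size factors. The authors' own comparison, not used here, is deposited as a log2 fold change, a Wald score and p-values. Whether the counting used the strand is not given in the sources used here.

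The raw counts were tested with edgeR 4.0.16 (quasi-likelihood, TMM, filterByExpr with a minimum count of 10, Benjamini-Hochberg over all genes tested) in R 4.3.3. Genotype was tested within a tissue with the replicate number as a block, after the study's covariate for harvest. Tissue and interaction were tested over 8 libraries in 4 groups without a block. A gene listed in 1 table only counted as 0 in the other. Levels are TMM-scaled CPM over the 8 libraries, and per kilobase they are divided by the length in the tables. DESeq2 1.42.0 and the other alternatives are given in the closing section.

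Each library was tied to a mouse by 37 genes whose normalized values in a supplement equal the deposited ones within a relative tolerance of 0.0001, so a number within a genotype marks 1 mouse across tissues. The log2 deviations of same-numbered mice correlated at 0.14 between tissues in WT and 0.14 in DDX5KO. Between genotypes, no source used here says which mice shared a harvest, and the correlation was 0.00 in colon and 0.13 in ileum. The tests were tried on simulated counts. Named genes are the 9 enzymes, Ddx5, up to 4 called genes of each list with the largest fold change, and the 2 nearest genes of each enzyme. Beyond these, Akp3, Mgam2-ps, Isx, the 3 repeat-like genes and single markers such as Epcam, Krt8, Cd79a and the Paneth defensins were named after their values were seen, as were the colon values of Ggt1. Some genes of the lists that this rule would name are not reported here. The 9 genes and the lists were chosen with earlier results of these data known. Positions are from GENCODE vM21 on GRCm38, a later release than the authors' vM19. All 9 genes matched a RefSeq promoter, by symbol.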

Additional observations from a re-analysis of the deposited data

How the results depend on the processing

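The tissue differences of the 9 genes held in direction under all alternatives that could be fitted, and every gene but Lct passed in each. Lct was not tested in the 4 WT libraries alone. The genotype calls did not hold as well. By the study's criterion the colon count of 1 became 0 in DESeq2, with or without the replicate block, and ran from 0 to 5 with a library left out, where an adjusted p under 0.05 was passed by 0 to 4 genes. The ileum count of 2 became 1 without the replicate block, in DESeq2 with it and without the filter on low counts, became 0 with all 8 libraries in one fit, and ran from 0 to 6 with a library left out. In those fits the lone library is assumed to vary like the other group.

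The log2 fold change of Sis in colon turned to 0.17 without the replicate block, 0.14 in DESeq2 without it and 0.18 with all 8 libraries, and that of Lct in ileum to -0.37, -0.47 and -0.38. The interaction of Sis turned to 0.11 with the mouse as replicate block. The block turned no other direction. The cause was not tested.

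With a library left out, colon values ranged from -3.86 to 1.11 for Sis, -0.37 to 0.10 for Mgam, -0.13 to 0.15 for Dpp4, -0.22 to 1.98 for Enpep and -0.68 to 0.87 for Alpi. Ileum values ranged from -1.83 to 2.66 for Lct, -0.43 to 0.29 for Mgam, -0.40 to 0.62 for Dpp4, -0.0745 to 0.82 for Enpep and -0.46 to 0.99 for Mme. Interactions ranged from -1.76 to 2.76 for Lct, -1.503 to 3.46 for Sis, -0.33 to 0.41 for Mgam, -1.21 to 0.81 for Treh, -0.44 to 0.61 for Dpp4, -1.55 to 0.64 for Enpep, -1.15 to 0.42 for Mme and -0.27 to 1.28 for Alpi.

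Per length, the mean share of Mgam moved from 87.3 to 78.7% in WT colon and from 22.1 to 14.3% in WT ileum. With the longest transcript as length, 32 of 36 ranks were unchanged, and with the RLE scaling that DESeq2 uses all 36. Over all genes, an adjusted p under 0.05 was passed by 98 in ileum, against 1 without the replicate block, 28 and 36 in DESeq2 with and without it, 423 without the filter, 20 without the repeat-like genes and 7 with all 8 libraries, and by 0 in colon, against 5, 118, 175, 0, 0 and 10. The study's criterion called 834 genes in colon and 797 in ileum, against 481 and 314 in DESeq2 with the block and 622 and 394 without it. Counts of 3 to 24 reads limit Lct and Treh in colon.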
